A study of Mus musculus with 24 samples.

Results

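Ovalbumin (OVA), an egg white protein used as a model allergen, was compared within lungs that had received the diesel exhaust particle sample labelled A-DEP (ADEP here). The 3 arrays titled ADEP/OVA were set against the 3 arrays titled ADEP, so the comparison rests on 6 of the 24 arrays of the series. The animals were females of the inbred strain BALB/C aged 8 to 10 weeks, and each of the 8 groups held 3 separate animals. ADEP mice received 150 ug of the particles by nasal instillation on days 0 and 13, and ADEP_OVA mice received 150 ug of particles together with 20 ug OVA on the same days. Lungs were taken 18 hours after the second dose. The labels give the ADEP_OVA mice as sensitized and the ADEP mice as not sensitized, and both groups carried the particle. The same OVA step was made from saline to OVA alone, from NDEP to NDEP_OVA and from CDEP to CDEP_OVA, where NDEP and CDEP are other particle samples given at 150 ug, and none of these groups shares an array with the ADEP comparison.

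An allergic lung response is driven by the type 2 cytokines interleukin 4 and interleukin 13, which act through the transcription factor STAT6. In airway epithelium they turn club cells into mucus-making goblet cells, in macrophages they raise the enzymes and lectins of alternative activation, and in several cell types they raise the eotaxins, chemokines that draw in eosinophils. Diesel exhaust particles carry metals and aromatic compounds and, given with an allergen, can act as an adjuvant in the airways.

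Gene levels are log2 intensities of whole lung, given for each mouse in the order of replicates 1, 2 and 3, and differences are log2 fold changes of ADEP_OVA minus ADEP with their SE. The adjusted p-values come from limma over 12393 genes. A gene is called dim in a group where its mean lies below the 25th percentile of each array of that group (4.54 to 4.62 log2 on these 6 arrays), and the size of its change is then uncertain. Array medians of the 6 arrays lay between 72.7 and 75.3 intensity units, and the number of mice limits the precision. In whole lung, a change in the number of cells of a type and a change in RNA per cell cannot be told apart. The defining genes of lung tissue were high on all 6 arrays, with the alveolar type 2 surfactant gene Sftpc between 13.59 and 13.76 and the club cell secretory gene Scgb1a1 between 13.89 and 14.15.

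Adding OVA to ADEP changed 8 of 12393 genes at an adjusted p of 0.05 (0.0646%). The 6 genes that rose (0.0484%) were Clca1 and Arg1, the chemokines Ccl11 and Ccl17, the macrophage lectin Mgl2 and the endothelial junction gene Cldn5, and the 2 that fell (0.0161%) were Hamp and Gsta4. The 3 ADEP_OVA arrays did not overlap the 3 ADEP arrays for any of the 8 genes. At an unadjusted p under 0.05, 621 genes were higher (5.01%) and 612 lower (4.94%). The arrays of both groups did not overlap for 1028 genes that were higher (8.3%) and 857 that were lower (6.92%). Together these are 15.2% of all genes, and the unadjusted calls 9.95%. The median difference over all genes was 0.01.

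Clca1 (Entrez gene 23844, chr3:145004537-145032776), a secreted protease of goblet cells that marks mucous metaplasia, showed the largest change. Its level was 3.78, 3.60 and 3.83 in ADEP replicates 1 to 3 and 7.92, 10.80 and 10.13 in ADEP_OVA replicates 1 to 3. All ADEP mice lay in the dim range and all ADEP_OVA mice far above it, with replicate 1 well below the other two. The group means differed by 5.88 ± 0.90 (58.8-fold, adjusted p = 0.00535). The call was lost without ADEP_OVA replicate 2 (adjusted p = 0.0510) and held without any 1 of the other 5 arrays, with differences of 5.29 to 6.73 over the 6 omissions. A second Clca1 probe set, with a mean of 3.79 over all 24 arrays, differed by 0.47 ± 0.20 (adjusted p = 0.471 among all probe sets). Positions of this and the following genes are of RefSeq genes on the mouse build GRCm38.p6.

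Arg1 (Entrez gene 11846, chr10:24915207-24927470) encodes arginase 1, which draws arginine away from nitric oxide synthesis and is a standard marker of alternatively activated macrophages. It was measured at 4.22, 4.01 and 4.15 in ADEP and at 6.38, 5.94 and 5.75 in ADEP_OVA. The ADEP mice were dim and close together, and every ADEP_OVA mouse stood more than 1 log2 unit above them. Arg1 rose by 1.90 ± 0.33 (3.73-fold, adjusted p = 0.0128). Without ADEP replicate 1, ADEP replicate 3, ADEP_OVA replicate 1 or ADEP_OVA replicate 2 the adjusted p was 0.125, 0.127, 0.127 and 0.0588, with differences of 1.72 to 2.04 over all 6 omissions.

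Mgl2 (Entrez gene 216864, chr11:70130125-70137542), a galactose-binding lectin of dendritic cells and alternatively activated macrophages, was already well expressed after particles alone. It lay at 6.86, 7.29 and 6.87 in ADEP and at 7.55, 8.16 and 8.01 in ADEP_OVA. The lowest ADEP_OVA mouse, replicate 1, was just above the highest ADEP mouse, replicate 2. Mgl2 rose by 0.90 ± 0.16 (adjusted p = 0.0128), and the adjusted p was 0.196, 0.132 and 0.116 without ADEP replicate 1, ADEP replicate 3 and ADEP_OVA replicate 2.

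Ccl11 (Entrez gene 20292, chr11:82057832-82062955) encodes eotaxin 1, the main eosinophil attractant of the lung. ADEP mice had 4.40, 4.50 and 4.24 and ADEP_OVA mice 5.58, 5.65 and 5.07. All 3 ADEP mice were in the dim range, and ADEP_OVA replicate 3 was the lowest of its group. Ccl11 rose by 1.05 ± 0.14 (2.07-fold) and had the smallest adjusted p of the comparison (0.000681). Of the 8 called genes, only Ccl11 kept its call without any 1 of the 6 arrays, with differences of 0.95 to 1.23.

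Ccl17 (Entrez gene 20295, chr8:94809380-94812038) encodes TARC, a chemokine of dendritic cells that attracts T helper 2 cells through the receptor Ccr4. Its levels were 6.52, 6.91 and 6.48 in ADEP and 7.57, 7.74 and 7.74 in ADEP_OVA. The ADEP_OVA mice were nearly equal, and each exceeded every ADEP mouse. Ccl17 rose by 1.05 ± 0.18 (2.07-fold, adjusted p = 0.0128). Its adjusted p was 0.159, 0.132 and 0.0694 without ADEP replicate 1, ADEP replicate 3 and ADEP_OVA replicate 2.

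Cldn5 (Entrez gene 12741, chr16:18776847-18778262) encodes claudin 5, a tight junction protein of endothelium. It stood at 10.81, 11.00 and 10.98 in ADEP and at 11.94, 11.44 and 11.37 in ADEP_OVA. ADEP_OVA replicate 1 was the highest, and the saline mice, at 11.58, 11.55 and 11.39, lay in the range of the ADEP_OVA mice and above the ADEP mice. Cldn5 rose by 0.65 ± 0.12 (1.57-fold, adjusted p = 0.0289), and the adjusted p was 0.274, 0.132, 0.239 and 0.0510 without ADEP replicate 1, ADEP replicate 3, ADEP_OVA replicate 1 and ADEP_OVA replicate 2.

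Hamp (Entrez gene 84506, chr7:30942368-30944029) encodes hepcidin, a peptide hormone that blocks iron export from cells and is induced by inflammation. Levels were 6.70, 6.30 and 6.63 in ADEP and 5.69, 5.87 and 5.41 in ADEP_OVA, so that every ADEP_OVA mouse was below every ADEP mouse. Saline mice had 5.81, 6.04 and 5.83, in or near the range of the ADEP_OVA mice. Hamp fell by 0.89 on the log2 scale (SE 0.15, 1.85-fold lower, adjusted p = 0.0107), and its other probe set differed by -1.49 ± 0.24. The neighbouring copy Hamp2 differed by -0.46 ± 0.11 (adjusted p = 0.125), and whether the probe sets tell the copies apart was not tested. The call of Hamp was lost without ADEP replicate 1 (adjusted p = 0.147) or ADEP replicate 3 (adjusted p = 0.127).

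Gsta4 (Entrez gene 14860, chr9:78191966-78209349), a glutathione S-transferase that clears the lipid peroxidation product 4-hydroxynonenal, was the other gene that fell. It was measured at 9.72, 9.51 and 9.54 in ADEP and at 8.44, 8.86 and 9.12 in ADEP_OVA. The ADEP mice were tightly grouped and the ADEP_OVA mice spread below them, with replicate 1 the lowest. The difference was -0.78 ± 0.15 (1.72-fold lower, adjusted p = 0.0378). Without ADEP replicate 1, ADEP replicate 3, ADEP_OVA replicate 1 and ADEP_OVA replicate 2 the adjusted p was 0.274, 0.132, 0.350 and 0.0991.

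**Figure D1:**
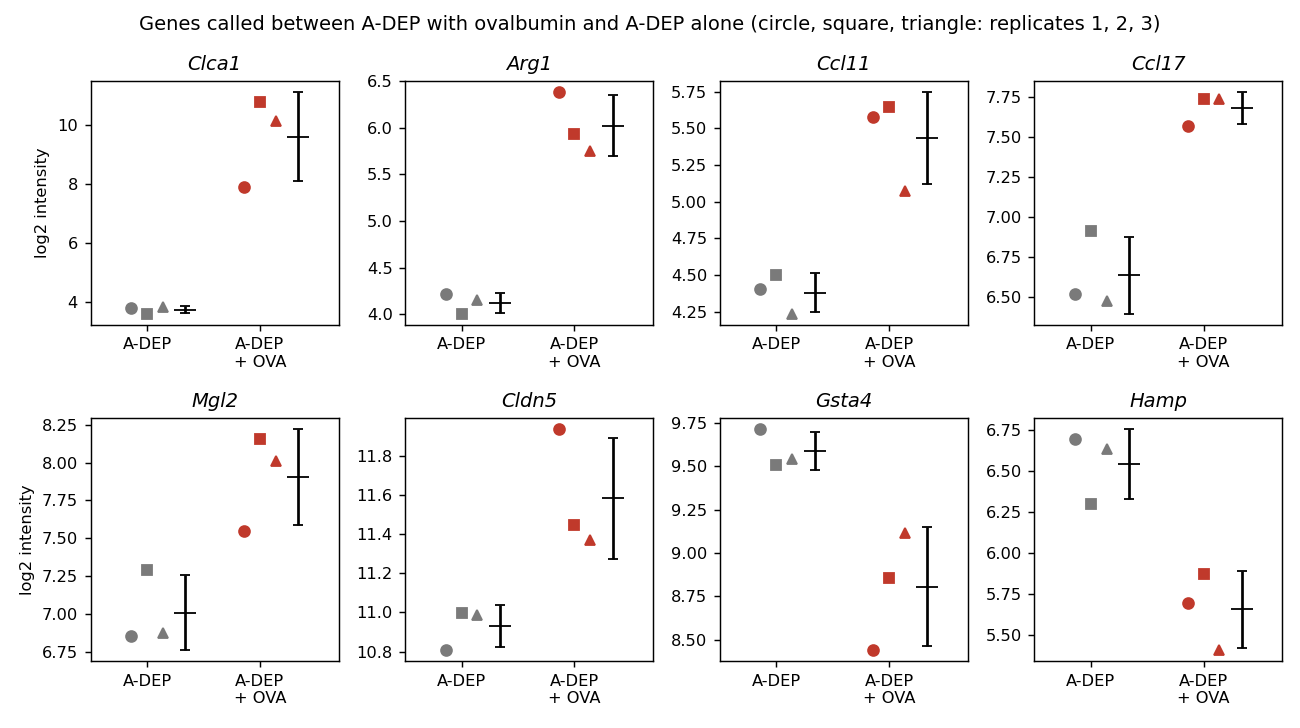
Log2 intensity of the 8 called genes on the 3 ADEP arrays (grey) and the 3 ADEP_OVA arrays (red), with replicates 1, 2 and 3 as circle, square and triangle and the mean ± SD beside them. The y axes differ between genes and do not start at 0. No gene has overlapping groups, and ADEP_OVA replicate 1 is the lowest of its group for Clca1 (7.92) and the highest for Cldn5 (11.94).

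The 250 bases before the start that the RefSeq sequence table gives are shown for Ccl17, a chemokine gene that rose, because this window holds a motif of STAT6, the factor through which interleukin 4 and interleukin 13 act. The sequence is from RefSeq on GRCm38.p6, 5′ to 3′ on the gene's strand, with motif matches in capitals. The searched motifs were the STAT6 motif (TTC and GAA with 4 bases of any kind between them), the IRF motif (TTTC, 2 bases of any kind, TTTC), the XRE core GCGTG bound by the aryl hydrocarbon receptor, and an NF-kB motif, on both strands. The Ccl17 window is chr8:94810203-94810452 on the plus strand. The start of this table lies inside the gene span given above and not at its first base, so the window overlaps that span, and the same holds for Mgl2.
Ccl17: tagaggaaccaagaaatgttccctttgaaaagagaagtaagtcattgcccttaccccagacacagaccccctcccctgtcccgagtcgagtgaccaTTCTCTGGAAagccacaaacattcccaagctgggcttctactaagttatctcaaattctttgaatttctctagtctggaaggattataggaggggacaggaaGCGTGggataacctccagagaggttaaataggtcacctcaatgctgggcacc
The capitals mark, in order, a STAT6 match (TTCTCTGGAA, starting 154 bases before the start) and an XRE core (at 52 bases). The windows of Mgl2, Cldn5 and Hamp, the other called genes in the sequence table, held none of the 4 motifs. Of 32851 promoter windows of that length, 5.85% held the STAT6 motif, 2.98% the IRF motif, 7.25% the NF-kB motif and 28.2% the XRE core. A match is a description of these letters and not a bound site.

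Another 12 genes differed by at least 2-fold without passing the test. Of the 9 genes at least 2-fold higher (0.0726%), 4 were called, and the other 5 were Chil3 (1.53 ± 0.33, adjusted p = 0.0774), Rnase2a (1.28 ± 0.26, adjusted p = 0.0523), Slc26a4 (1.25 ± 0.29), Agr2 (1.15 ± 0.45) and Fcgbp (1.08 ± 0.25). The 7 genes at least 2-fold lower (0.0565%) were Orm1 (-1.63 ± 0.38), the haem synthesis gene Alas2 (-1.20 ± 0.46), the muscle genes Ckmt2 (-1.19 ± 0.28) and Smpx (-1.14 ± 0.23), the clock gene Dbp (-1.11 ± 0.39), Orm2 (-1.06 ± 0.22) and the neutrophil granule gene Ltf (-1.02 ± 0.30), with adjusted p from 0.0523 for Smpx to 0.386 for Alas2.

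The type 2 chemokine list held 2 of the 8 called genes, Ccl11 and Ccl17, and was chosen with earlier results of these data known. Of 10 measured genes, 2 rose (beside 0.0484% of all genes), 0 fell (beside 0.0161%) and 8 did not pass. For 6 genes the ADEP_OVA arrays lay wholly above the ADEP arrays (beside 8.3% of all genes). The list median was 0.45 beside 0.01 over all genes. The monocyte chemokine Ccl7, which also binds the eotaxin receptor, lay at 5.59, 5.27 and 5.69 in ADEP and at 6.67, 6.44 and 6.07 in ADEP_OVA, a difference of 0.88 ± 0.22 (adjusted p = 0.148). Ccl8, a ligand of Ccr8 on T helper 2 cells, differed by 0.77 ± 0.25, eotaxin 2 (Ccl24) by 0.45 ± 0.18 and Ccl22, a further Ccr4 ligand of dendritic cells, by 0.44 ± 0.13. In all 4 the 3 ADEP_OVA mice exceeded the 3 ADEP mice, and none passed the test (adjusted p from 0.148 to 0.391). The receptors of these chemokines were near 0: Ccr3 differed by 0.04 ± 0.08, Ccr4 by -0.02 ± 0.13 and Ccr8 by 0.01 ± 0.11. In this list of chemokines and receptors 3 of the 10 genes were dim in both groups, where the size of a change is uncertain.

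Goblet cell and mucus genes included the strongest response, Clca1, as the 1 member of 18 that rose (beside 0.0484% of all genes). In this list 0 fell and 17 did not pass. ADEP_OVA arrays lay wholly above ADEP arrays for 7 members (beside 8.3% of all genes). Differences were above 0 for 14 (beside 54% of all genes), and the list median was 0.26. That median was 0.15 without ADEP_OVA replicate 3 and 0.39 without ADEP_OVA replicate 1. Slc26a4 (pendrin), which exchanges anions at the airway surface, had 7.54, 7.09 and 7.44 in ADEP and 8.00, 9.18 and 8.64 in ADEP_OVA (adjusted p = 0.121). Fcgbp, a mucus-binding protein of goblet cells, had 6.80, 6.50 and 6.70 in ADEP and 7.07, 7.98 and 8.18 in ADEP_OVA (adjusted p = 0.121). The gel-forming mucin Muc5ac had 6.20, 5.97 and 6.15 in ADEP and 6.29, 6.70 and 6.97 in ADEP_OVA, a difference of 0.54 ± 0.18 (adjusted p = 0.330). ADEP_OVA replicate 1 lay just above the ADEP mice in all 3 genes, and replicates 2 and 3 stood clear of them. The mucin chaperone Agr2 followed the same order, at 6.84, 6.12 and 6.69 in ADEP and 6.41, 8.19 and 8.49 in ADEP_OVA, with replicate 1 inside the ADEP range. The other gel-forming mucin, Muc5b, differed by -0.00 ± 0.28 and the secreted defence protein Bpifa1 by -0.53 ± 0.24.

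Alternatively activated macrophage genes had 2 called members of 14, Arg1 and Mgl2, both higher (beside 0.0484% of all genes). In this list 0 fell and 12 did not pass. Differences were above 0 for 13 (beside 54% of all genes). The arrays did not overlap for 7 higher (beside 8.3% of all genes) and 1 lower (beside 6.92%), and the median was 0.29. Chil3, the chitinase-like protein Ym1 of macrophages, had 7.39, 7.69 and 7.09 in ADEP and 9.02, 9.38 and 8.38 in ADEP_OVA. Every ADEP_OVA mouse exceeded every ADEP mouse, and the saline mice, at 8.47, 8.28 and 7.87, lay above the ADEP mice. The mannose receptor Mrc1 differed by 0.49 ± 0.14 (adjusted p = 0.270) and the adhesion gene Cdh1 by -0.54 ± 0.16 (adjusted p = 0.269). Retnla, a secreted macrophage protein that is a classic target of interleukin 4, was near 13 log2 in both groups, at 13.29, 12.68 and 13.10 in ADEP and 13.08, 13.40 and 13.53 in ADEP_OVA, and differed by 0.31 ± 0.44 (adjusted p = 0.871).

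Chitinases and chitinase-like genes had no called member of 5, with a median of 0.89. Beside Chil3, the acidic chitinase Chia1 differed by 0.92 ± 0.24 (adjusted p = 0.167), from 8.14, 8.49 and 7.94 to 8.29, 9.66 and 9.39, with ADEP_OVA replicate 1 inside the ADEP range. Chil4 (Ym2), made by airway epithelium, went from 4.29, 4.31 and 4.36 to 4.87, 5.61 and 5.13, from dim to not dim (0.89 ± 0.27, adjusted p = 0.275). Chil1 (BRP-39) differed by -0.28 ± 0.21. Chil3 and Chil4 are close copies, and whether their probe sets tell them apart was not tested.

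The type 2 cytokines themselves were at the limit of measurement. Il4 was dim in both groups and differed by -0.06 ± 0.12, Il5 was dim in both and differed by 0.27 ± 0.12 (adjusted p = 0.485), and Il13, dim in ADEP, differed by 0.07 ± 0.10. Of 14 measured type 2 cytokine and receptor genes, 0 were called in either direction and 2 did not overlap and were higher (beside 8.3% of all genes). The list median was 0.12, or 0.07 without ADEP_OVA replicate 3. The receptor subunit Il4ra differed by 0.49 ± 0.17 and the epithelial alarmin Il33 by -0.20 ± 0.22. In the eosinophil list 0 of 8 measured genes were called, 6 were dim in both groups, and the median was 0.09, with 0.16 without ADEP replicate 2 and 0.04 without ADEP_OVA replicate 1. All 8 differences were above 0 (beside 54% of all genes), and 2 genes were higher without overlap (beside 8.3%). With the mean levels of the heart and fat lists as covariates, 5 of the 8 were above 0. The defining granule genes Epx and Prg2 were dim in both groups, at 3.86 to 4.02 and 4.07 to 4.23 for Epx, and differed by 0.22 ± 0.11 and 0.01 ± 0.11. Rnase2a (Ear11), an eosinophil-associated ribonuclease that macrophages also make, had 3.66, 3.78 and 3.67 in ADEP and 4.71, 5.45 and 4.79 in ADEP_OVA, just short of the threshold. It belongs to a family of close copies. Each ADEP_OVA mouse was about 1 log2 unit or more above the dim ADEP mice.

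Genes induced by interferon gamma had positive differences throughout, although none was called. All 19 measured members had differences above 0 (beside 54% of all genes). ADEP_OVA arrays lay wholly above ADEP arrays for 13 (beside 8.3% of all genes), and the median was 0.30. Gbp6, a guanylate-binding protein of cell-autonomous defence, had 5.43, 5.14 and 5.12 in ADEP and 6.29, 6.29 and 5.80 in ADEP_OVA, a difference of 0.90 ± 0.21 (adjusted p = 0.121). The T cell attractants Cxcl9 and Cxcl10 differed by 0.83 ± 0.33 (adjusted p = 0.396) and 0.55 ± 0.29 (adjusted p = 0.551), and the immunity-related GTPases Iigp1 and Igtp by 0.82 ± 0.30 and 0.64 ± 0.22. ADEP_OVA replicate 3 was the lowest of its group for Gbp6 and Cxcl10, and for Cxcl10 it lay level with the highest ADEP mouse at 6.57. Members of this list had the same sign under the fits with RNA quality or with heart and fat levels as covariates, where the median was 0.26 and 0.35. The cytokine Ifng itself differed by 0.18 ± 0.11 and the type I interferon list, with 16 measured genes, had a median of 0.09 and no call.

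**Figure D2:**
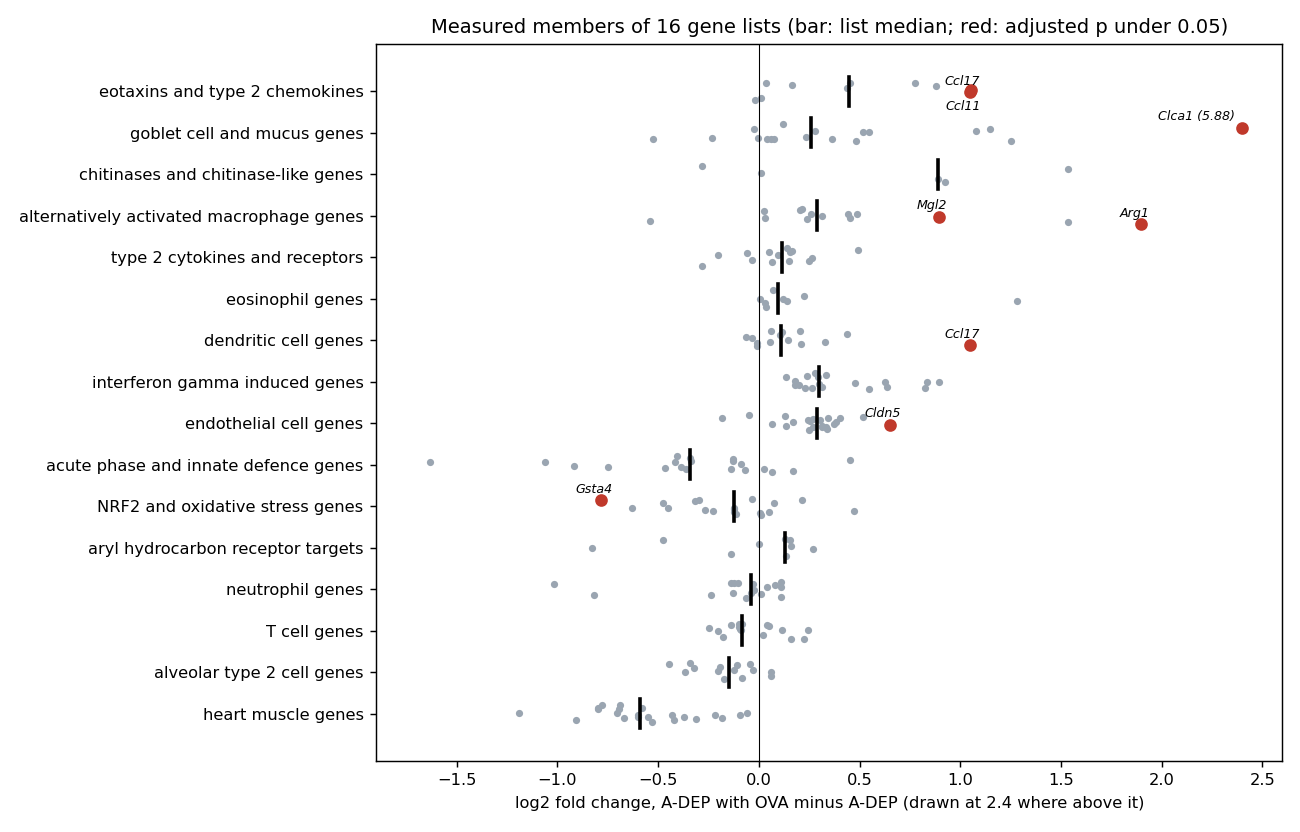
Log2 fold change of ADEP_OVA minus ADEP for the measured members of 16 gene lists, 1 point per gene, with called genes in red and the list median as a bar. Clca1 is drawn at the right edge of the axis with its value of 5.88 printed, the type 2 chemokine list has a median of 0.45, and all 22 heart muscle genes lie below 0.

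Acute phase genes had mostly negative differences. Of 20 measured members 0 were called, 16 had differences below 0 (46% of all genes), 5 did not overlap and were lower (6.92%), and the median was -0.34, or -0.22 without ADEP_OVA replicate 2. Orm1, a plasma acute phase glycoprotein, had 8.15, 7.02 and 8.43 in ADEP and 6.22, 5.46 and 7.0 in ADEP_OVA (adjusted p = 0.121). The highest ADEP_OVA mouse was just below the lowest ADEP mouse, and the saline mice, at 4.83, 4.76 and 4.92, were below both groups. Orm2 differed by -1.06 ± 0.22 (adjusted p = 0.0648) and was dim in ADEP_OVA, the haem carrier hemopexin (Hpx) by -0.92 ± 0.26, and the local serum amyloid Saa3 by -0.38 ± 0.49. Orm1 and Orm2 are close copies, so their probe sets may share signal.

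Among detoxification and iron genes, the NRF2 list and the iron list gave 1 call each. Of 19 NRF2 and oxidative stress genes, 1 fell (Gsta4, beside 0.0161% of all genes), 0 rose and 18 did not pass, with a median of -0.12. The quinone reductase Nqo1 differed by -0.48 ± 0.14 (adjusted p = 0.258), the autophagy receptor Sqstm1 by 0.47 ± 0.15 (adjusted p = 0.283) and haem oxygenase Hmox1 by -0.03 ± 0.16. Of 9 aryl hydrocarbon receptor genes 0 were called, and Aldh3a1, an aldehyde dehydrogenase, had 6.50, 6.13 and 6.14 in ADEP and 4.98, 5.22 and 6.08 in ADEP_OVA, a difference of -0.83 ± 0.17 (adjusted p = 0.0563). The receptor's main targets Cyp1a1 and Cyp1b1 differed by 0.13 ± 0.26 and -0.14 ± 0.22. Among 10 metallothionein and iron genes Hamp was the 1 that fell (beside 0.0161% of all genes), and the transferrin receptor Tfrc differed by -0.46 ± 0.15.

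Neutrophil genes and the chemokines that recruit neutrophils gave no call. The 17 neutrophil genes had a median of -0.04 and the 14 neutrophil chemokine and acute cytokine genes a median of 0.07, with S100a8 at -0.24 ± 0.28 and Cxcl1 at -0.29 ± 0.33. T cell genes (16 measured, median -0.08), B cell genes (14, median -0.15) and plasma cell and immunoglobulin genes (12, median -0.03) had no called member. The signs of these small medians turned without single arrays in the neutrophil, neutrophil chemokine, T cell and plasma cell lists. The B cell attractant Cxcl13 differed by 0.16 ± 0.33. Dendritic cell genes had Ccl17 as their 1 called member of 14 (higher, beside 0.0484% of all genes) and a median of 0.11. In this list 5 genes were higher without overlap (beside 8.3% of all genes).

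Heart muscle genes, which the heart and the muscle sleeves of the pulmonary veins express, were lower in ADEP_OVA in 22 of 22 measured members. Over all genes, 46% were lower. Of the 22 heart muscle genes, 13 did not overlap (beside 6.92% of all genes), 0 were called and the median was -0.59. Their mean level was 8.38, 7.73 and 8.02 in ADEP and 7.29, 7.57 and 7.61 in ADEP_OVA, so the groups did not overlap and ADEP replicate 1 was the highest. Myl7, an atrial myosin light chain, had 11.19, 10.66 and 11.14 in ADEP and 9.80, 10.24 and 10.23 in ADEP_OVA. The heart list median of the OVA step was also below 0 on saline (-0.20), with NDEP (-0.39) and with CDEP (-0.46). With CDEP, 4 of the 22 heart muscle genes were called lower (beside 1.66% of all genes). Endothelial genes had 20 of 22 members above 0 (beside 54% of all genes) and 8 higher without overlap (beside 8.3%). Their list held 1 called gene (Cldn5, higher, beside 0.0484% of all genes) and had a median of 0.29. The adhesion gene Pecam1 differed by 0.52 ± 0.15 and the receptor Tie1 by 0.37 ± 0.10. The mean endothelial level was 9.53, 9.81 and 9.79 in ADEP and 10.19, 9.95 and 9.79 in ADEP_OVA. The groups overlapped in this mean. ADEP replicate 1 was the lowest and ADEP_OVA replicate 1 the highest, and without either of these arrays the list median was 0.15. The mean club cell level of ADEP_OVA was 9.72, 9.88 and 10.08 beside 9.97 to 10.05 in ADEP, and the mean alveolar type 2 level was 10.78, 11.09 and 11.13 beside 11.14 to 11.20.

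With the mean levels of the heart and fat lists as covariates, 2 genes were called, Ccl11 (1.03, adjusted p = 0.0421) and Clca1 (6.97, adjusted p = 0.0421). The other 6 called genes kept their direction, at 2.12 for Arg1, 0.94 for Ccl17, 0.84 for Mgl2, 0.40 for Cldn5, -0.70 for Hamp and -0.50 for Gsta4, with adjusted p from 0.211 to 0.999. The heart level did not overlap between the groups, so a call lost in this fit cannot be told apart from lost precision. At an unadjusted limma p under 0.05 this fit gave 1.85% of all genes higher and 1.47% lower, beside 5.01% and 4.94% without the covariates. The part of heart tissue, endothelium and other cell types in these results was not tested further. With the heart and fat covariates the acute phase list median was -0.00 instead of -0.34, the endothelial median 0.11 instead of 0.29 and the goblet median 0.58 instead of 0.26. With the trend and robust variance options Clca1 (adjusted p = 0.0757) and Arg1 (adjusted p = 0.132) lost their calls, and with only the 6 compared arrays in the fit Mgl2 (0.0945), Cldn5 (0.168), Hamp (0.0662) and Gsta4 (0.125) did. In a two-sided exact permutation test of 3 against 3 mice, the heart list gave p = 0.1. The skeletal muscle, erythroid, thymus and fat lists gave 0.2, 0.3, 0.5 and 0.9, and the liver means differed by 0.003. RNA quality differences between the groups were within their spread. In log2 units, the Gapdh control probe set at the 3' end exceeded that at the 5' end by 0.195 ± 0.090 in ADEP_OVA and 0.256 ± 0.132 in ADEP (n = 3 each, two-sided exact permutation p = 0.6), and for Actb the excess was 0.828 ± 0.078 and 0.897 ± 0.115 (two-sided exact permutation p = 0.5), where 0.1 is the smallest p that 3 against 3 mice allow.

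**Figure D3:**
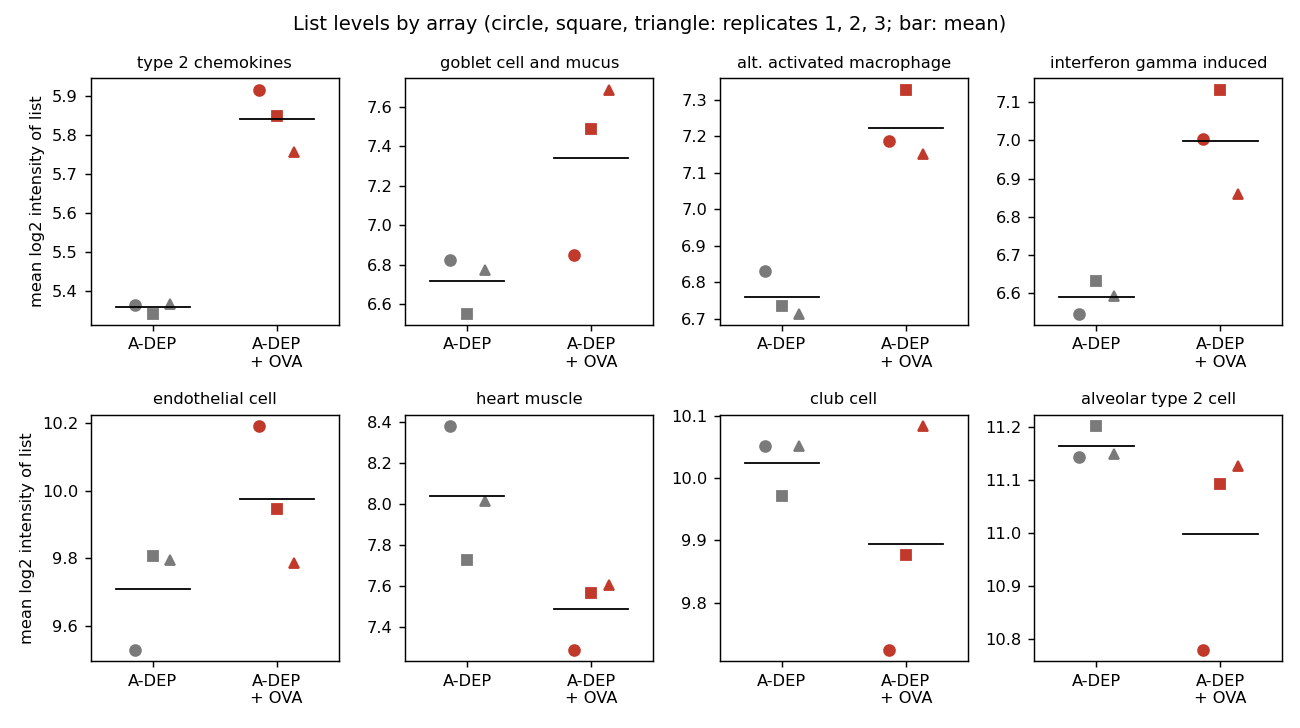
Mean log2 intensity of 8 gene lists on the 3 ADEP arrays (grey) and the 3 ADEP_OVA arrays (red), with replicates 1, 2 and 3 as circle, square and triangle and the group mean as a bar. The y axes differ and do not start at 0. ADEP_OVA replicate 1 is the lowest of its group for goblet cell genes (6.85), heart muscle (7.29), club cells (9.72) and alveolar type 2 cells (10.78), and the highest for endothelium (10.19).

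The OVA step on the other backgrounds gave different numbers of calls. OVA against saline called 0 genes (0%, limma, 818 genes or 6.6% at an unadjusted p under 0.05), NDEP_OVA against NDEP called 34 (0.274%) and CDEP_OVA against CDEP called 444 (3.58%). Of the 8 genes called with ADEP, 3 were also called with NDEP (Clca1, Arg1 and Ccl11, 37.5% of the ADEP list and 8.82% of the NDEP list). With CDEP, 5 were called (Clca1, Arg1, Ccl11, Mgl2 and Hamp, 62.5% of the ADEP list and 1.13% of the CDEP list). All 8 had the same sign with ADEP, NDEP and CDEP, and 4 of 8 had that sign after OVA alone. Ccl17, Cldn5 and Gsta4 were called with ADEP and not with NDEP or CDEP, with OVA effects of 0.09 and 0.23 for Ccl17, 0.19 and 0.17 for Cldn5 and -0.34 and -0.30 for Gsta4 with NDEP and CDEP. The tests of these differences did not pass, with an adjusted p of 0.604 and 0.131 for Ccl17 (0.96 ± 0.25 and 0.82 ± 0.25 larger with ADEP), 0.604 and 0.170 for Cldn5, and 0.629 and 0.239 for Gsta4.

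Genes called on the other particle backgrounds were also read in the ADEP comparison. Its arrays do not enter the NDEP and CDEP fold changes, but they share with them the normalization, the choice of probe sets and the variance estimates behind the calls. Over all genes, 54% were above 0 with ADEP and 46% below 0, and the arrays did not overlap for 8.3% that were higher and 6.92% that were lower. Of the 14 genes that rose with NDEP_OVA (0.113%), 14 were above 0 with ADEP, 12 (85.7%) did not overlap and were higher, and their median was 1.07 with ADEP beside 1.85 with NDEP. Of the 20 that fell with NDEP_OVA (0.161%), 19 were below 0 with ADEP and 7 (35%) did not overlap, with medians of -0.28 and -0.70. Of the 238 that rose with CDEP_OVA (1.92%), 149 were above 0 with ADEP and 58 (24.4%) did not overlap, with medians of 0.07 and 0.52. Of the 206 that fell with CDEP_OVA (1.66%), 122 were below 0 with ADEP and 38 (18.4%) did not overlap, with medians of -0.03 and -0.45. The NDEP and CDEP medians are of genes picked for passing in those same comparisons, which favours large values there. The sizes of these medians therefore cannot show whether the OVA effect was weaker with ADEP. Across 12393 genes, which are not independent, the OVA effect with ADEP correlated with that of NDEP at a Pearson r of 0.31, of CDEP at 0.13 and of OVA alone at -0.08. All arrays share 1 normalization.

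**Figure D4:**
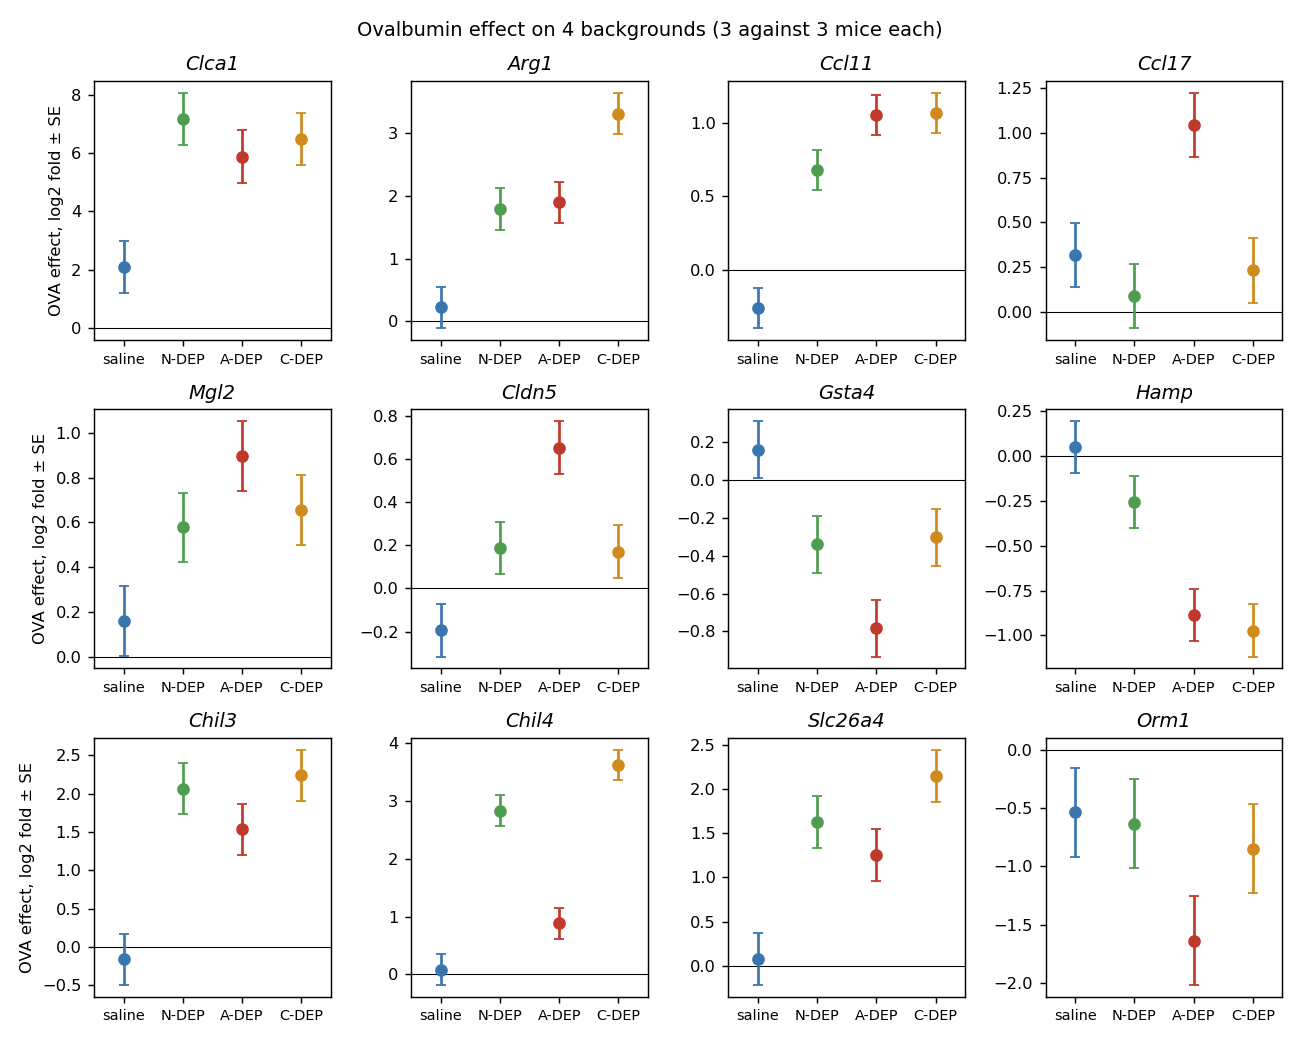
Log2 fold change of the OVA step ± SE (3 against 3 mice) on saline, NDEP, ADEP and CDEP backgrounds, for the 8 called genes and for Chil3, Chil4, Slc26a4 and Orm1. Clca1 is above 5 log2 on all 3 particle backgrounds, Ccl17 is highest with ADEP (1.05), and Chil4 is lower with ADEP (0.89) than with CDEP (3.62).

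Only 3 genes differed between the OVA effect with ADEP and the OVA effect on saline (0.0242%, with 0.00807% higher and 0.0161% lower). Ccl11 was the 1 that was higher: its OVA effect was 1.05 with ADEP and -0.26 on saline, a difference of 1.32 ± 0.19 (adjusted p = 0.00543). Saline mice had 4.45, 4.50 and 4.62 and OVA mice 4.17, 4.25 and 4.37, so of these 4 groups only ADEP_OVA was not dim. The difference passed with any 1 of the 12 arrays left out and failed with the heart and fat levels as covariates (1.16, adjusted p = 0.233). Bambi, a decoy receptor that blocks signalling of the transforming growth factor beta family, had an OVA effect of -0.42 with ADEP and 0.35 on saline, a difference of -0.78 ± 0.14 (adjusted p = 0.0480). The levels of Bambi were 7.09, 7.21 and 7.01 in ADEP, 6.68, 6.67 and 6.70 in ADEP_OVA, 6.96, 6.96 and 6.80 in saline and 7.19, 7.24 and 7.35 in OVA. Timm10b, a mitochondrial import factor, had effects of -0.21 and 0.59, a difference of -0.80 ± 0.15 (adjusted p = 0.0496). In both genes OVA was lower than its control with ADEP and higher on saline. The other probe sets of Timm10b had OVA effects of -0.11 ± 0.11, -0.10 ± 0.12 and 0.01 ± 0.10 with ADEP. Bambi lost its call in 11 of 12 omissions of an array and Timm10b in 10 of 12, with adjusted p up to 0.148 without OVA replicate 3 for Bambi and 0.251 without ADEP replicate 3 for Timm10b. For the other called genes the difference from saline was 3.79 ± 1.27 for Clca1 (95% interval 1.17 to 6.41, adjusted p = 0.314), 1.68 ± 0.47 for Arg1 (adjusted p = 0.232) and 0.85 ± 0.17 for Cldn5 (adjusted p = 0.0928). Clca1 varied widely among the OVA mice, at 6.79, 3.80 and 9.29.

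Against CDEP, 3 genes had a different OVA effect (0.0242%, with 0.00807% higher and 0.0161% lower). Chil4 differed by -2.74 ± 0.38 (adjusted p = 0.00193): its level was 7.79, 7.38 and 9.14 in CDEP_OVA and 4.36, 4.45 and 4.63 in CDEP, so the CDEP_OVA mice stood more than 1 log2 unit above the highest ADEP_OVA mouse at 5.61. The difference passed with any 1 array left out and failed with RNA quality (-2.01, adjusted p = 0.110) or heart and fat levels (-2.74, adjusted p = 0.0707) as covariates. The calcium channel gene Cacna1b had an OVA effect of 0.30 with ADEP and -0.52 with CDEP (difference 0.82 ± 0.14, adjusted p = 0.0300), and the glycosyltransferase gene B3gnt5 had -0.43 and 0.51 (difference -0.93 ± 0.17, adjusted p = 0.0468). A second B3gnt5 probe set, with a mean of 3.12 over all 24 arrays, had an OVA effect of 0.11 ± 0.10 with ADEP. With 12 arrays left out in turn, the call was lost 7 times for Cacna1b (up to an adjusted p of 0.137 without CDEP replicate 2) and 8 times for B3gnt5 (up to 0.163 without ADEP replicate 1). For Arg1 the difference was -1.42 ± 0.47 (adjusted p = 0.144), for Clca1 -0.60 ± 1.27 and for Ccl11 -0.02 ± 0.19 with a 95% interval of -0.41 to 0.38.

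Against NDEP, no gene had a different OVA effect at the threshold (0%, limma, 978 genes or 7.89% at an unadjusted p under 0.05). The smallest p-values belonged to Chil4 (-1.94 ± 0.38, adjusted p = 0.327), the ectoenzyme gene Enpp5 (0.60 ± 0.13, adjusted p = 0.604) and Clmn (-0.73 ± 0.17, adjusted p = 0.604). The Clmn probe set used had an OVA effect of -0.46 ± 0.12 with ADEP, and a second one went the other way, at 0.33 ± 0.12. NDEP_OVA mice had 7.49, 6.72 and 7.22 for Chil4, all above the ADEP_OVA mice. Arg1 differed by 0.11 ± 0.47 (95% interval -0.86 to 1.07), Ccl11 by 0.37 ± 0.19 (-0.03 to 0.77) and Clca1 by -1.29 ± 1.27 (-3.91 to 1.33), an interval that spans differences in either direction.

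**Figure D5:**
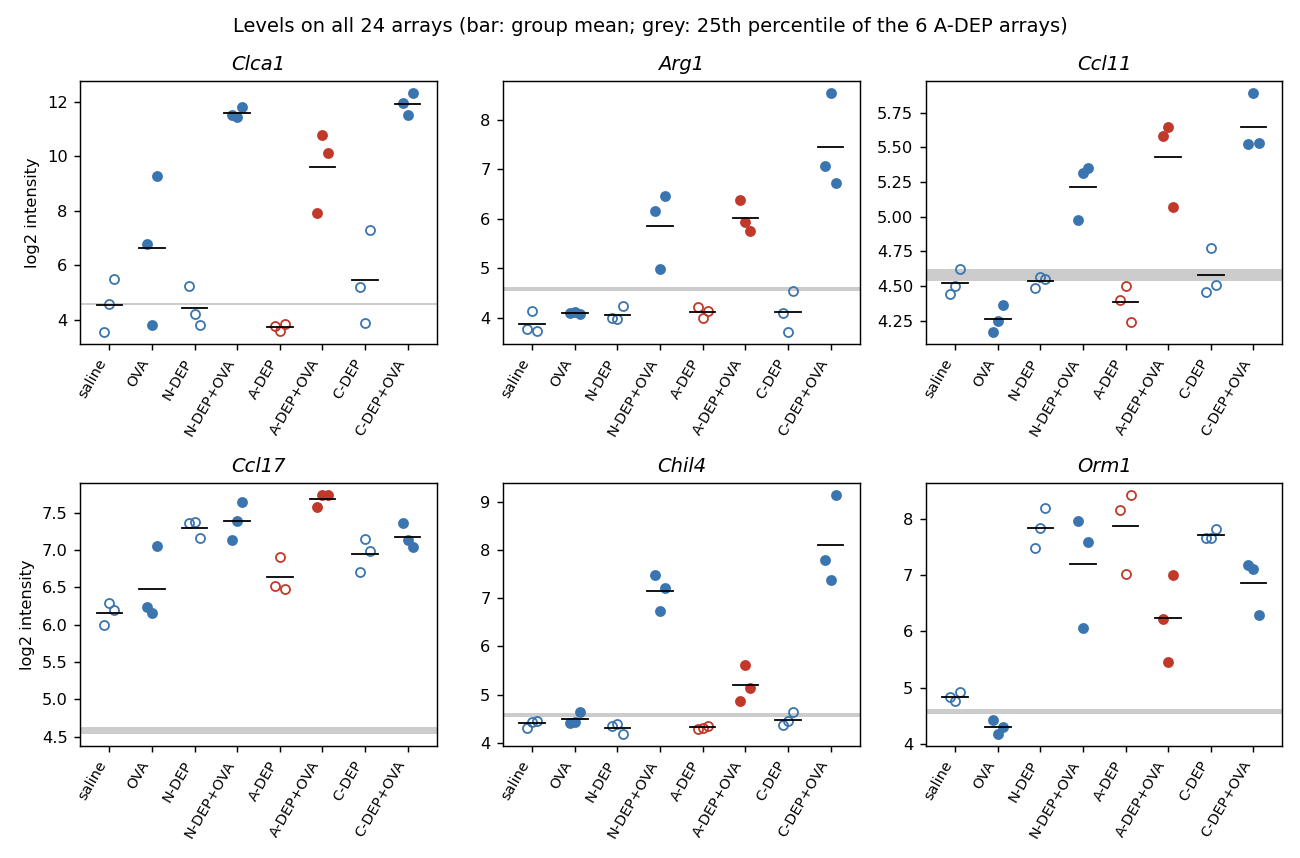
Log2 intensity of 6 genes on all 24 arrays, 1 point per mouse, with ADEP groups in red, groups given OVA filled, group means as bars and the range of the 25th percentile of the 6 ADEP arrays in grey. The y axes differ and do not start at 0. The group means of Arg1 and Ccl11 lie above the grey range in the 3 groups given particles with OVA, and Orm1 is lower in ADEP_OVA (5.46 to 7.0) than in ADEP (7.02 to 8.43).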

How the data were processed

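Whole-lung RNA of 24 mice (8 groups of 3) was measured on Affymetrix mouse 430A arrays. The values are linear intensities that the authors deposited after RMA normalization, per the submitters' processing notes. Which version of RMA was run, and how, is not given in those notes. RMA normalizes between arrays, and intensities of weak genes lie close to background.

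Values were turned to log2. Of 22690 probe sets, 64 were controls, 20380 had 1 gene symbol, 691 several and 1555 none. The probe set with the highest mean over all 24 arrays stood for each gene, giving 12393 genes. limma 3.58.1 (R 4.3.3, lmFit and eBayes, two-sided) fitted 8 group means to 24 arrays, with 16 residual and 8.16 prior degrees of freedom, and Benjamini-Hochberg adjustment at 0.05 over all genes within each comparison. Differences of OVA effects were contrasts of the same model. The pipeline was tested on simulated data. Figures used matplotlib 3.10.9.

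No pair of arrays held identical data: the highest correlation was 0.996. The labels give each array as a separate biological replicate. Members, gene lists (47 lists, 609 of 704 members measured) and motifs were chosen with earlier results of these data known. Some genes, such as Ccl17, Ccl22, Ccl24 and Chil3, belong to more than 1 list and count in each. Named genes were all called genes, for each list described the 4 members at most that had the lowest p, 24 genes of interest, and those past the threshold (or with the 3 smallest p) in each difference of OVA effects. Genes at least 2-fold changed, receptors, list members shown for contrast, Hamp2 and the tissue checks were added after their values were seen. Alternatives were all probe sets, no dim genes, renewed quantile normalization, array weights, trend and robust variance, the compared groups alone, the replicate block, RNA quality covariates, heart and fat covariates, and leaving out each array. The result of 1 searched motif is not reported here.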

Additional observations from a re-analysis of the deposited data

Results flagged for a closer look

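These 6 genes had an OVA effect with ADEP that differed, by the limma test of the difference itself, from the OVA effect on another background. Against saline they were Ccl11 (difference 1.32), Timm10b (-0.80) and Bambi (-0.78). Timm10b had 8.08, 8.30 and 8.27 in ADEP, 8.04, 7.95 and 8.03 in ADEP_OVA, 7.72, 7.32 and 7.52 in saline and 8.18, 8.17 and 7.98 in OVA, so the largest step was that from saline to OVA. Against CDEP they were Chil4 (-2.74), Cacna1b (0.82) and B3gnt5 (-0.93). Cacna1b had 5.01, 4.97 and 5.0 in ADEP, 5.40, 5.19 and 5.28 in ADEP_OVA, 5.21, 5.47 and 5.34 in CDEP and 4.91, 4.78 and 4.76 in CDEP_OVA. B3gnt5 had 5.48, 5.45 and 5.14 in ADEP, 4.90, 5.08 and 4.82 in ADEP_OVA, 4.91, 4.81 and 4.76 in CDEP and 5.40, 5.29 and 5.31 in CDEP_OVA. In both genes the groups did not overlap on either background and the OVA step ran in opposite directions. Both were picked for a difference of OVA effects in these same arrays, so the opposite steps are no separate evidence. Over all genes, the ADEP and ADEP_OVA arrays did not overlap for 8.3% that were higher and 6.92% that were lower. Both calls were lost in most omissions of 1 array, as given above.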

How the results depend on the processing

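None of the 8 called genes changed direction under any alternative run. Of 197 genes followed, 30 genes, all uncalled, changed sign under at least 1 alternative, 23 of them with heart and fat covariates and 10 without 1 array. With heart and fat covariates these included Saa3 (0.71), Cxcl1 (0.59), Cyp1b1 (0.58), Cyp1a1 (-0.23), Hmox1 (0.17) and Chil1 (0.17). Without 1 array they included Cxcl13 (-0.07 without ADEP replicate 2), S100a8 (0.06 without ADEP replicate 3), Il4 and Il13. Of 47 list medians, 22 changed sign, 5 of them at least 0.1 in size: with heart and fat covariates the median was 0.10 for ciliated, 0.06 for club, 0.02 for cell cycle, -0.04 for fibroblast and -0.03 for MHC class II genes. The number of genes called for OVA with ADEP was 8 in the fit reported above and with dim genes left out or quantile normalization renewed, 7 with all probe sets (1 lower) or with the compared groups alone (1 lower, 4 genes shared), 6 with trend and robust variance, 11 with RNA quality covariates, 101 with array weights (44 higher, 57 lower) and 2 with heart and fat covariates (2 higher, 0 lower). Leaving out 1 array gave 2 to 44 calls (1 to 16 higher, 0 to 28 lower): 2 without ADEP replicate 1 or 3, 3 without ADEP_OVA replicate 2, 18 without ADEP replicate 2 and 44 without ADEP_OVA replicate 3. The replicate block gave 26 calls (16 higher, 10 lower), among them all 8. Deviations of same-numbered mice correlated at -0.18, 0.02 and -0.13, and those of mice with unlike numbers at -0.10 to 0.21. So few correlations cannot decide whether mice of the same number shared a batch.

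For the difference from saline (3 genes), all probe sets gave 1, array weights 51, RNA quality covariates 11, heart and fat covariates 0 and leaving out an array 1 to 19. For the difference from CDEP (3 genes), all probe sets gave 7, dim genes left out 10, renewed quantile normalization 12, array weights 191, the compared groups alone 20, the replicate block 12, RNA quality and heart and fat covariates 0 each and leaving out an array 1 to 37. For the difference from NDEP (0 genes), the compared groups alone gave 1. The cause of these changes was not tested. With 3 mice a group and weak signals near background, small changes of dim genes could not be measured.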

Other observations

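Several further gene groups were measured without a call. Over all genes, 54% of differences were above 0 and 46% below 0. The alveolar macrophage list had 11 of 13 members above 0 and a median of 0.25, and the macrophage lysosome and lipid list 13 of 17 and a median of 0.16, while with heart and fat covariates these medians were 0.06 and 0.03. Without ADEP replicate 1 the lysosome and lipid median was 0.10. General monocyte and macrophage genes had 9 of 16 above 0 and a median of 0.03. Immediate early genes, which respond within minutes to stimulation or handling, had 15 of 18 members above 0 and a median of 0.11 (0.18 without ADEP_OVA replicate 2), with the endothelial factor Klf2 at 0.40 ± 0.13 (adjusted p = 0.337). Cell cycle genes had 20 of 29 members below 0 and a median of -0.12, which was -0.20 without ADEP replicate 2 and turned to 0.02, with 17 of 29 above 0, with heart and fat covariates. Among them were Ube2c at -0.49 ± 0.17 (adjusted p = 0.343) and the proliferation marker Mki67 at -0.40 ± 0.17 (adjusted p = 0.446).

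Alveolar type 2 genes had 12 of 14 members below 0 and a median of -0.15 (-0.03 without ADEP_OVA replicate 1), with the lipid transporter Abca3 at -0.36 ± 0.12 (adjusted p = 0.335) and surfactant protein B (Sftpb) at -0.34 ± 0.14 (adjusted p = 0.437). Ciliated cell genes had 6 of 8 below 0 and a median of -0.27. This median was -0.09 without ADEP_OVA replicate 1 and -0.43 without ADEP_OVA replicate 3, and it turned to 0.10, with 6 of 8 above 0, with heart and fat covariates. Their master regulator Foxj1 differed by -0.50 ± 0.20 (adjusted p = 0.421). Smooth muscle, skeletal muscle and fat lists had medians of -0.01, -0.01 and 0.05. Unfolded protein response genes, which secretory cells use, had 9 of 18 members above 0 and a median of -0.00, which was 0.12 with heart and fat covariates.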
